A study of Danio rerio with 6 samples.

Results

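The genes described here encode plasma proteins that the liver secretes, together with the apolipoproteins of blood lipoproteins and a few liver enzymes. They were taken by name from a list of 45 gene symbols, chosen with earlier results of these data known. Of these, 33 were among the 23025 genes of the count table. By role, 9 were apolipoproteins, 7 were transport proteins, 14 were clotting factors, protease inhibitors or related plasma proteins and 3 were liver enzymes. The 12 names without a row were *apoa4a*, *apoa4b*, *apobb_1*, *apobb_2*, *apoc1*, *apoh*, *apoda*, *apodb*, *hpx*, *gc*, *ahsg2* and *itih3*. The question was whether loss of *gas6* changes gene expression in the zebrafish hindbrain, and RNA was sequenced from dissected hindbrains of embryos aged 48 hours after fertilization (hpf). There were 3 libraries from homozygous *gas6* mutants (gas6-/-) and 3 from wildtype controls, each made from a pool of dissected tissue that had been freed of yolk. Both genotypes carried *olig2:EGFP*, a transgene whose green fluorescence served as a guide for cutting out the tissue. The mutant line descends from CRISPR/Cas9 editing at the *gas6* start codon and carries a frameshift. Its alleles all came through 1 founder fish, and the allele used for these libraries was not given in the sources used here.

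Lipoproteins carry lipids through the blood as particles wrapped in apolipoproteins. In adult vertebrates hepatocytes make most apolipoproteins and most other plasma proteins, including transferrin, fibrinogen and the circulating protease inhibitors. In zebrafish embryos the yolk syncytial layer, which surrounds the yolk, also makes apolipoproteins and packages yolk lipid into lipoproteins. Neither liver nor yolk is a part of the hindbrain. In RNA from dissected tissue, a difference in the number of cells of a type and a difference in RNA per cell cannot be told apart.

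Total counts ranged from 18376627 to 27025868 per library. *gas6* was at 105, 153 and 117 counts in the mutant libraries, against 941, 898 and 790 in wildtype, so the libraries followed their genotype labels. Of 12 segment genes that mark the hindbrain, 8 were called lower in the mutants and none higher, where 16.6% of all genes tested were called lower. The fall exceeded 2-fold for 2 of them. The summed level of the 12 genes was between 980 and 1079 CPM in the mutants and between 1260 and 1513 CPM in wildtype. Levels are given in CPM, the counts of a gene per 1000000 counts of its library after scaling by the TMM method. Fold changes are those of *gas6* mutants over wildtype, tested with edgeR's quasi-likelihood method over all genes. A gene was called at a Benjamini-Hochberg adjusted p-value under 0.05. No source states whether the 3 pools of a genotype came from separate clutches, so p-values measure the spread between these libraries.

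Plasma protein transcripts were higher in *gas6* mutant hindbrains. Of the 33 genes found, 31 passed the filter on low counts, and 30 of these had a positive log2 fold change. The adjusted p-value was under 0.05 for 19 of the 31 genes, against a background of 33.3% of all 20463 genes tested. All 19 rose, where 16.7% of all genes tested were called higher and 16.6% lower. With a change of more than 2-fold as a further condition, 16 genes were called, against 9.65% of all genes tested, with 6.06% called higher and 3.59% called lower. The genes were chosen with earlier results of these data known, so the comparison with all genes is a description and not a test. The median log2 fold change was 1.105 over the 31 genes and 0.02 over all genes tested. Of all calls, 50.3% were higher in the mutants, or 70.6% when libraries were scaled by their totals, a scale that shifted the median of all genes by 0.15 and left 30 of the 31 genes positive. The summed level of the 33 genes was 1481, 611 and 1208 CPM in the mutant libraries, against 354, 687 and 303 CPM in the wildtype libraries. The genotypes overlapped in this sum, because *gas6* mutant library 2 lay below wildtype library 2. These 2 libraries were left out together in an alternative chosen after their values had been seen. There, 28 of the 31 genes were called, against 20.0% of 20510 genes tested, and 26 changed more than 2-fold, against 10.2% of all genes tested. Mutant library 2 was the lowest mutant library for 23 of the 31 genes, and wildtype library 2 was the highest wildtype library for 30. Leaving them out was therefore bound to widen most differences, and these counts are a description that adds no support.

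**Figure D1:**
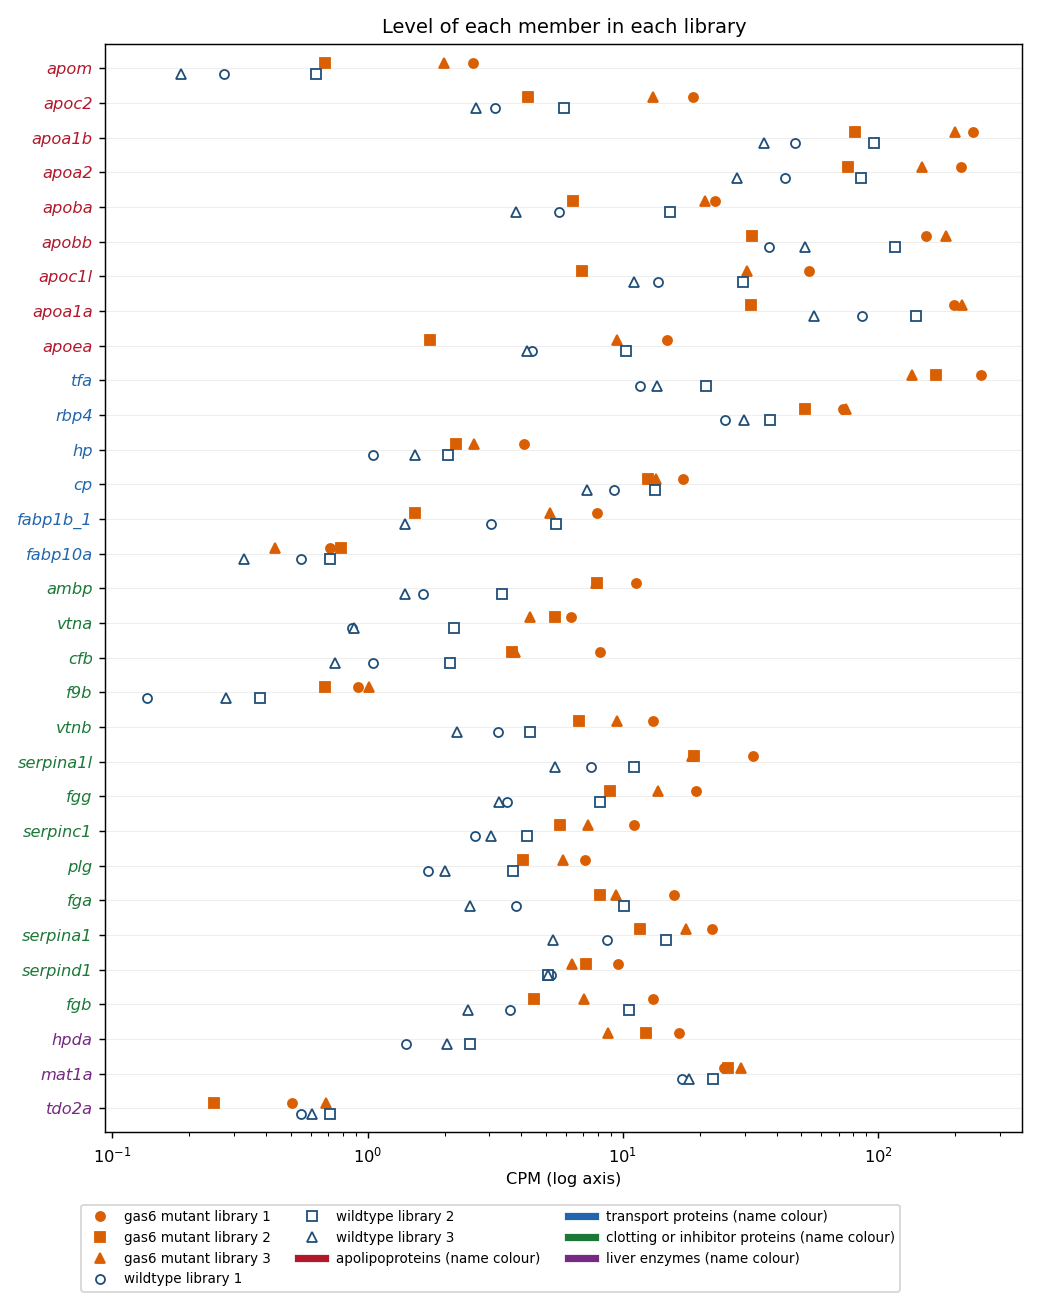
CPM of each of the 31 genes tested, on a log axis, in the 3 *gas6* mutant libraries (filled, upper row of each gene) and the 3 wildtype libraries (open, lower row). Name colours give the group of a gene, and within a group genes run from the largest to the smallest log2 fold change. The squares, library 2 of each genotype, lie toward each other or cross over for all 9 apolipoproteins, whereas for *tfa* and *hpda* the filled and open symbols stand far apart.

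Apolipoproteins of high density lipoprotein were examined first. *apoa1a* and *apoa1b* encode copies of apolipoprotein A-I, the main protein of this particle, and *apoa2* encodes apolipoprotein A-II. *apoa1b* was at 236, 81.4 and 201 CPM in the mutant libraries, against 47.2, 96.6 and 35.8 CPM in the wildtype libraries. Mutant libraries 1 and 3 lay above all wildtype libraries, and mutant library 2 lay below wildtype library 2. *apoa1b* rose with a log2 fold change of 1.53 (SE 0.377, adjusted p = 0.00881). *apoa2* was at 212, 76.3 and 149 CPM in the mutants, against 43.0, 85.7 and 28.1 CPM in wildtype, with the same order of libraries. It rose by a similar amount (log2 fold change 1.48, SE 0.378, adjusted p = 0.0107), but missed the threshold under DESeq2 (adjusted p = 0.0525, within 2.3e-06 to 0.0525 over 14 alternatives). *apoa1a* was at 199, 31.9 and 214 CPM in the mutants, against 86.2, 141 and 56.2 CPM in wildtype. Here mutant library 2 was the lowest of all 6 libraries, and *apoa1a* did not pass (log2 fold change 0.65, SE 0.506, adjusted p = 0.347). Without that library its log2 fold change was 1.13 (adjusted p = 0.0132, within 5.43e-05 to 0.747 over 14 alternatives). For *apoa2* and *apoa1a* the lowest of these values came from the fit without library 2 of both genotypes, chosen after seeing the data. The ratio of *apoa1b* to *apoa1a* counts was 1.19, 2.56 and 0.939 in the mutant libraries, against 0.547, 0.687 and 0.636 in wildtype. Each mutant library thus held relatively more *apoa1b*.

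*apom* encodes apolipoprotein M, which carries sphingosine-1-phosphate on high density lipoprotein. Its level was 2.59, 0.679 and 1.99 CPM in the mutants, against 0.273, 0.630 and 0.186 CPM in wildtype. It was the only apolipoprotein among the 9 whose genotypes did not overlap, although the margin was 19 counts in mutant library 2 against 15 in wildtype library 2. *apom* rose with a log2 fold change of 2.20 (SE 0.532, adjusted p = 0.00800). Groups did not overlap, with all mutant libraries above, for 16 of the 31 genes and for 24.8% of all genes tested.

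Apolipoprotein B is the structural protein of the larger, lipid-rich lipoproteins. *apoba* was at 23.0, 6.36 and 21.1 CPM in the mutants, against 5.60, 15.3 and 3.82 CPM in wildtype, and *apobb* was at 154, 32.1 and 185 CPM in the mutants, against 37.2, 116 and 51.9 CPM in wildtype. For both genes wildtype library 2 was above mutant library 2, and for *apobb* mutant library 2 was the lowest of all. Neither passed, with log2 fold changes of 1.01 for *apoba* (SE 0.480, adjusted p = 0.125) and 0.85 for *apobb* (SE 0.508, adjusted p = 0.219). Without mutant library 2 the values were 1.41 for *apoba* (adjusted p = 0.0284) and 1.305 for *apobb* (adjusted p = 0.0201). Without wildtype library 2 they were 1.81 for *apoba* (adjusted p = 0.00721) and 1.46 for *apobb* (adjusted p = 0.0408). Over 14 alternatives the adjusted p ranged from 3.98e-06 to 0.336 for *apoba* and from 4e-06 to 0.600 for *apobb*. The lowest value of each gene came from the fit without library 2 of both genotypes, chosen after seeing the data.

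The small exchangeable apolipoproteins gave 1 call among 3 genes, where 33.3% of all genes tested were called. *apoc2* encodes the cofactor of lipoprotein lipase, the enzyme that releases fatty acids from lipoproteins. It was at 18.9, 4.25 and 13.1 CPM in the mutants, against 3.14, 5.88 and 2.66 CPM in wildtype, and rose with a log2 fold change of 1.61 (SE 0.437, adjusted p = 0.0144). That call was lost without mutant library 1 (1.148, adjusted p = 0.0623) and without wildtype library 1 (1.46, adjusted p = 0.0618), within 4.62e-06 to 0.0623 over 14 alternatives. Under DESeq2 *apoc2* also fell just short of the threshold (adjusted p = 0.0529). *apoc1l*, an older name of the C-I gene *apoc1* in RefSeq, was at 53.4, 6.93 and 30.5 CPM in the mutants, against 13.7, 29.5 and 11.1 CPM in wildtype. Mutant library 2 was the lowest of the 6, and *apoc1l* did not pass (log2 fold change 0.73, SE 0.528, adjusted p = 0.312). Without mutant library 2 it was at 1.21 (adjusted p = 0.0281, within 8.13e-05 to 0.956 over 14 alternatives). For *apoc2* and *apoc1l* the lowest of these values came from the fit without library 2 of both genotypes, chosen after seeing the data. *apoea*, a copy of the gene for apolipoprotein E, the ligand of lipoprotein receptors, had from 1.75 to 14.9 CPM in the mutants and from 4.19 to 10.3 CPM in wildtype (log2 fold change 0.43, SE 0.542, adjusted p = 0.568).

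Taken as a group, 4 of the 9 apolipoproteins rose, none fell and 5 did not pass, with a median log2 fold change of 1.01. Of all genes tested, 16.7% were called higher and 16.6% lower. Their summed level was 913, 242 and 824 CPM in the mutant libraries, against 241, 501 and 194 CPM in wildtype. This is 660 ± 365 CPM in mutants and 312 ± 165 CPM in wildtype (SD, n = 3 each), so the difference in means was smaller than the SD in the mutants. Mutant library 2 stood at the level of wildtype library 1, and wildtype library 2 was the highest of its genotype.

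**Figure D2:**
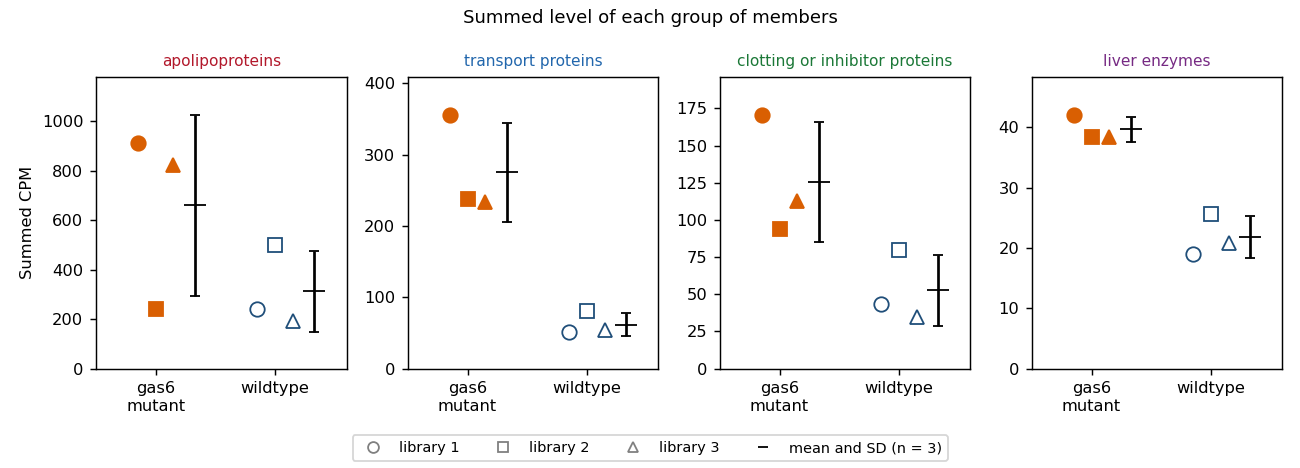
Summed CPM of each group of genes in the 3 *gas6* mutant libraries (filled, left) and the 3 wildtype libraries (open, right), with the mean and SD of each genotype beside them. The symbol gives the library number, and the vertical axes differ between groups. The genotypes overlap for apolipoproteins and stand apart for transport proteins, where the mutant libraries lie between 233 and 355 CPM and the wildtype libraries between 50.7 and 80.4 CPM.

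Among transport proteins, *tfa* showed the largest log2 fold change of the 31 genes. It encodes transferrin, the iron carrier of plasma. *tfa* was at 253, 168 and 136 CPM in the mutant libraries, against 11.7, 21.2 and 13.6 CPM in the wildtype libraries. The lowest mutant library was far above the highest wildtype library, and mutant library 2 lay between the other two. *tfa* averaged 186 ± 60.0 CPM in mutants and 15.5 ± 5.03 CPM in wildtype (SD, n = 3 each), an 11.98-fold difference with a log2 fold change of 3.58 (SE 0.252, adjusted p = 1.64e-06). Its log2 value stayed between 3.29 and 3.94 over 14 alternatives, and each of these passed. The transport group owed most of its summed difference to this gene. The log2 ratio of its summed CPM was 2.16 with *tfa* and 0.95 without it.

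*rbp4* encodes the plasma carrier of retinol, the precursor of retinoic acid. It was at 72.6, 51.6 and 75.1 CPM in the mutants, against 25.1, 37.6 and 29.8 CPM in wildtype. All mutant libraries lay above all wildtype libraries, and *rbp4* rose 2.15-fold (log2 fold change 1.105, SE 0.167, adjusted p = 0.000452). *hp* encodes haptoglobin, which binds free haemoglobin, and was at 4.11, 2.22 and 2.61 CPM in the mutants, against 1.05, 2.06 and 1.54 CPM in wildtype. It rose with a log2 fold change of 0.91 (SE 0.299, adjusted p = 0.0340), with mutant library 2 just above wildtype library 2. Leaving out any of 4 libraries left *hp* short of the threshold. The log2 values were 0.63 without mutant library 1 (adjusted p = 0.143), 1.00 without mutant library 3 (0.0528), 0.69 without wildtype library 1 (0.101) and 0.90 without wildtype library 3 (0.0753), and the adjusted p lay within 0.0117 to 0.143 over 14 alternatives. The lowest of these came from the fit without library 2 of both genotypes, chosen after seeing the data.

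*cp* encodes ceruloplasmin, a copper-containing ferroxidase. It was at 17.1, 12.6 and 13.4 CPM in the mutants, against 9.20, 13.3 and 7.23 CPM in wildtype, and wildtype library 2 lay within the mutant range. *cp* did not pass (log2 fold change 0.53, SE 0.202, adjusted p = 0.0630). Without wildtype library 2 the value was 0.79 (adjusted p = 0.00646, within 0.00646 to 0.217 over 14 alternatives), and *cp* also passed under DESeq2 (0.0439) and with libraries scaled by their totals (0.0342). *fabp1b_1*, a fatty acid binding protein gene, had 7.91, 1.54 and 5.18 CPM in the mutants, against 3.05, 5.46 and 1.40 CPM in wildtype (log2 fold change 0.52, SE 0.504, adjusted p = 0.453). Its order of libraries was that of the apolipoproteins and not that of *tfa*.

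The 5 genes of lowest summed count on the list were *ttr*, *ahsg*, *tdo2a*, *f9b* and *fabp10a*, and *tdo2a* and *f9b* are given with their groups. *fabp10a*, the liver fatty acid binding protein widely used to mark zebrafish hepatocytes, had 14, 22 and 12 counts in the mutant libraries, against 12, 17 and 7 in wildtype (log2 fold change 0.26, SE 0.390, adjusted p = 0.639). *ttr*, the thyroid hormone carrier transthyretin, had 5, 2 and 3 counts in the mutants, against 1, 0 and 2 in wildtype, and did not pass the filter on low counts. *ahsg*, the fetuin A gene, had 1, 6 and 5 counts in the mutants and 2 in each wildtype library, and was not tested either. No fold change is given for these last 2 genes, whose levels were too low to show a difference at this depth.

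**Figure D3:**
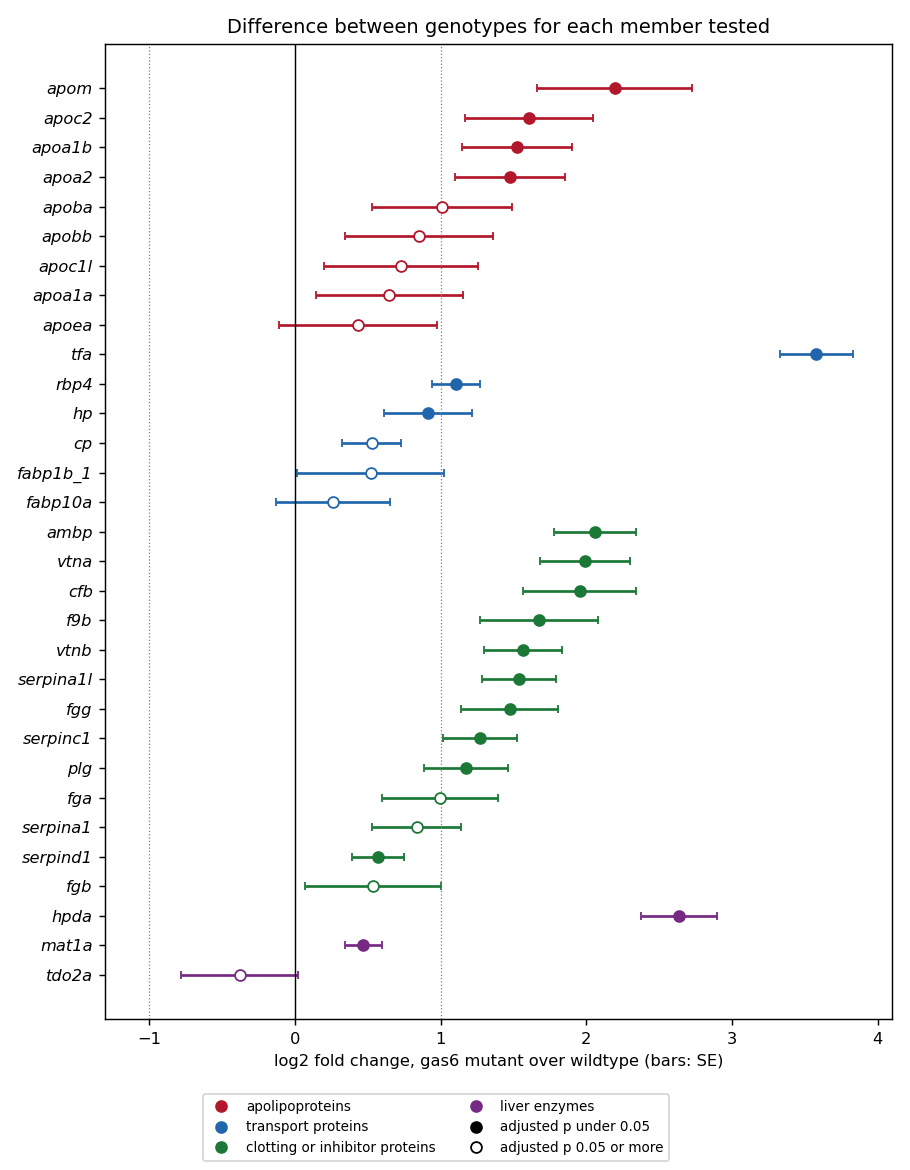
Log2 fold change of *gas6* mutant over wildtype for each of the 31 genes tested, with bars of 1 SE; filled points had an adjusted p-value under 0.05 and dotted lines mark a 2-fold change. All points but that of *tdo2a* lie to the right of 0, *tfa* lies farthest right at 3.58, and the apolipoprotein gene *apoea* has the widest bar.

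Clotting factors and protease inhibitors were examined next. Of the 13 genes tested, 10 rose, none fell and 3 did not pass, where 16.7% of all genes tested were called higher. The same 10 genes did not overlap between genotypes, which held for 24.8% of all genes tested. Log2 fold changes ran from 0.53 for *fgb* to 2.06 for *ambp*. The median log2 fold change was 1.47. Their summed level was 171, 93.6 and 113 CPM in the mutants, against 43.7, 79.9 and 34.7 CPM in wildtype, and this sum did not overlap. Both mutant library 2 and wildtype library 2 again lay toward the other genotype.

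Fibrinogen, the precursor of the fibrin clot, is built from alpha, beta and gamma chains encoded by *fga*, *fgb* and *fgg*. *fgg* was at 19.3, 8.87 and 13.7 CPM in the mutants, against 3.51, 8.11 and 3.26 CPM in wildtype, and rose with a log2 fold change of 1.47 (SE 0.334, adjusted p = 0.00560). *fga* was at 15.9, 8.11 and 9.38 CPM in the mutants, against 3.83, 10.1 and 2.52 CPM in wildtype. For *fga*, wildtype library 2 was above 2 of the 3 mutant libraries, and the gene did not pass (log2 fold change 1.00, SE 0.397, adjusted p = 0.0723). Without wildtype library 2, *fga* reached 1.78 (adjusted p = 0.000866, within 0.00017 to 0.255 over 14 alternatives). The lowest value came from the fit without library 2 of both genotypes, chosen after seeing the data. *fgb* had from 4.47 to 13.2 CPM in the mutants and from 2.47 to 10.6 CPM in wildtype (log2 fold change 0.53, SE 0.466, adjusted p = 0.403). Whether the 3 chains differed from each other in their response was not tested.

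Serine protease inhibitors of the serpin family included 3 genes that rose, where 16.7% of all genes tested were called higher. *serpina1* and *serpina1l* encode forms of alpha-1-antitrypsin, which inhibits neutrophil elastase. *serpina1l* was at 32.3, 19.0 and 18.7 CPM in the mutants, against 7.47, 11.01 and 5.41 CPM in wildtype, without overlap (log2 fold change 1.54, SE 0.255, adjusted p = 0.000850). *serpina1* was at 22.4, 11.6 and 17.7 CPM in the mutants, against 8.66, 14.7 and 5.31 CPM in wildtype, and did not pass (log2 fold change 0.84, SE 0.306, adjusted p = 0.0529). It passed without mutant library 2 (1.06, adjusted p = 0.0299) and without wildtype library 2 (1.28, adjusted p = 0.00357), within 0.000325 to 0.192 over 14 alternatives. The lowest value came from the fit without library 2 of both genotypes, chosen after seeing the data. Counts of both genes were fractional and reads were divided between similar genes, so their separate values are uncertain. Their sum was 54.7, 30.6 and 36.4 CPM in the mutants, against 16.1, 25.8 and 10.7 CPM in wildtype, with all mutant libraries above.

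*serpinc1* encodes antithrombin, the main inhibitor of thrombin. It was at 11.1, 5.68 and 7.31 CPM in the mutants, against 2.64, 4.20 and 3.03 CPM in wildtype, and rose 2.44-fold (log2 fold change 1.27, SE 0.255, adjusted p = 0.00275). *serpind1* encodes heparin cofactor II, another thrombin inhibitor, and was at 9.58, 7.15 and 6.30 CPM in the mutants, against 5.24, 5.08 and 5.08 CPM in wildtype. Its rise was smaller (log2 fold change 0.57, SE 0.178, adjusted p = 0.0270), and the 3 wildtype libraries were almost equal. The *serpind1* call was lost without mutant library 1 (0.39, adjusted p = 0.123), mutant library 2 (0.62, 0.0564), wildtype library 2 (0.55, 0.0597) or wildtype library 3 (0.55, 0.0712), within 0.0142 to 0.123 over 14 alternatives.

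*ambp* encodes a precursor that is cut into alpha-1-microglobulin and the protease inhibitor bikunin. It was at 11.3, 7.94 and 7.86 CPM in the mutants, against 1.64, 3.36 and 1.40 CPM in wildtype. Every mutant library was more than 2-fold above every wildtype library, and *ambp* rose 4.23-fold (log2 fold change 2.06, SE 0.282, adjusted p = 0.000238). *vtna* and *vtnb* encode copies of vitronectin, an adhesive plasma protein that also stabilizes a serpin. *vtna* was at 6.24, 5.398 and 4.31 CPM in the mutants, against 0.866, 2.18 and 0.886 CPM in wildtype (log2 fold change 1.99, SE 0.311, adjusted p = 0.000566). *vtnb* was at 13.1, 6.76 and 9.45 CPM in the mutants, against 3.23, 4.33 and 2.24 CPM in wildtype (log2 fold change 1.56, SE 0.267, adjusted p = 0.00102). Both copies rose without overlap between genotypes. Of all genes tested, 16.7% were called higher and 24.8% had all mutant libraries above.

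The remaining proteins of this group are zymogens of clotting, clot lysis and complement. *plg* encodes plasminogen, whose active form dissolves fibrin, and was at 7.10, 4.08 and 5.83 CPM in the mutants, against 1.73, 3.70 and 2.00 CPM in wildtype (log2 fold change 1.17, SE 0.286, adjusted p = 0.00831). *cfb*, complement factor B of the alternative pathway, was at 8.11, 3.68 and 3.77 CPM in the mutants, against 1.05, 2.1 and 0.746 CPM in wildtype (log2 fold change 1.96, SE 0.387, adjusted p = 0.00251). *f9b*, related to clotting factor IX, was a low gene with 18, 19 and 28 counts in the mutants, against 3, 9 and 6 in wildtype (log2 fold change 1.68, SE 0.406, adjusted p = 0.00806). All 3 genes rose, and none overlapped between genotypes. Of all genes tested, 16.7% were called higher and 24.8% had all mutant libraries above.

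Of the 3 liver enzymes, *hpda* had the second largest log2 fold change of the 31 genes. It encodes hydroxyphenylpyruvate dioxygenase, an enzyme of tyrosine breakdown, and was at 16.5, 12.4 and 8.76 CPM in the mutants, against 1.41, 2.52 and 2.05 CPM in wildtype. The genotypes were well apart, and *hpda* rose 6.29-fold (log2 fold change 2.64, SE 0.261, adjusted p = 2.41e-05). *mat1a* encodes a methionine adenosyltransferase, which makes S-adenosylmethionine, and was at 25, 25.9 and 29.0 CPM in the mutants, against 17.0, 22.5 and 18.2 CPM in wildtype. It rose slightly (log2 fold change 0.47, SE 0.128, adjusted p = 0.0147), a call lost without mutant library 3 (0.40, adjusted p = 0.0596) or wildtype library 3 (0.42, adjusted p = 0.0602), within 0.0069 to 0.0602 over 14 alternatives. *tdo2a*, a tryptophan dioxygenase gene, had 10, 7 and 19 counts in the mutants, against 12, 17 and 13 in wildtype (log2 fold change -0.38, SE 0.402, adjusted p = 0.498).

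The libraries of a genotype differed from each other more for these genes than for most. The median SD of log2 CPM within a genotype was 1.02 for the 9 apolipoproteins, 0.440 for the 6 transport proteins tested, 0.5 for the 13 clotting or inhibitor genes and 0.184 over all genes tested. In the summed level of the apolipoproteins, library 2 stood apart from libraries 1 and 3 in both genotypes. Among the mutants, library 1 stood highest in the other 2 sums, at 355, 237 and 233 CPM for transport proteins. The clotting or inhibitor sum was 171, 93.6 and 113 CPM in the mutants. The share of each library in the spread was not tested. *gas6* mutant library 2 was the lowest of the mutants for all 9 apolipoproteins, where this held for 28.4% of all genes tested. Relative to the mean of mutant libraries 1 and 3, it held between 0.144 of their level for *apoea* and 0.423 for *apoa2*. The corresponding ratio was 0.866 for *tfa*, 0.978 for *hpda*, 0.957 for *mat1a* and 0.831 for *ambp*. Among the clotting or inhibitor genes it ran from 0.442 for *fgb* to 1.02 for *vtna*. Thus the low apolipoprotein level of mutant library 2 went with a *tfa* level between those of the other mutant libraries. The ratio of *tfa* to *apoa1a* counts was 1.27, 5.29 and 0.638 in the mutant libraries, against 0.136, 0.151 and 0.242 in wildtype.

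Wildtype library 2 moved the other way. It was the highest of the wildtype libraries for 30 of the 31 genes, where this held for 31.3% of all genes tested, and *serpind1* was the exception. Relative to the mean of wildtype libraries 1 and 3, the median ratio was 2.399 for the apolipoproteins, 2.11 for the clotting or inhibitor genes, 1.63 for the transport proteins and 0.997 over all genes tested. These libraries were picked out after their values had been seen, so the ratios are a description. The summed marker lists of other cell types were set beside these ratios. The photoreceptor list had ratios of 1.23 in mutant library 2 and 1.79 in wildtype library 2, and the epidermal list had 0.818 in mutant library 2 and 1.48 in wildtype library 2. The skeletal muscle list had 0.796 in mutant library 2 and 1.00 in wildtype library 2, and the lens list had 0.758 in mutant library 2 and 0.28 in wildtype library 2. Erythrocyte, microglia, gut and pancreas, and hindbrain segment lists lay between 0.905 and 1.01 in mutant library 2 and between 0.841 and 1.07 in wildtype library 2. The apolipoprotein sum had 0.278 in mutant library 2 and 2.31 in wildtype library 2. In the same order, further liver lists had 0.870 and 1.09 for plasma proteins, and 0.819 and 1.12 for enzymes. Liver transcription factors had 1.03 and 1.02, and genes of lipoprotein handling had 0.984 and 0.962. The part of the cell types behind any of these lists in the result was not tested.

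**Figure D4:**
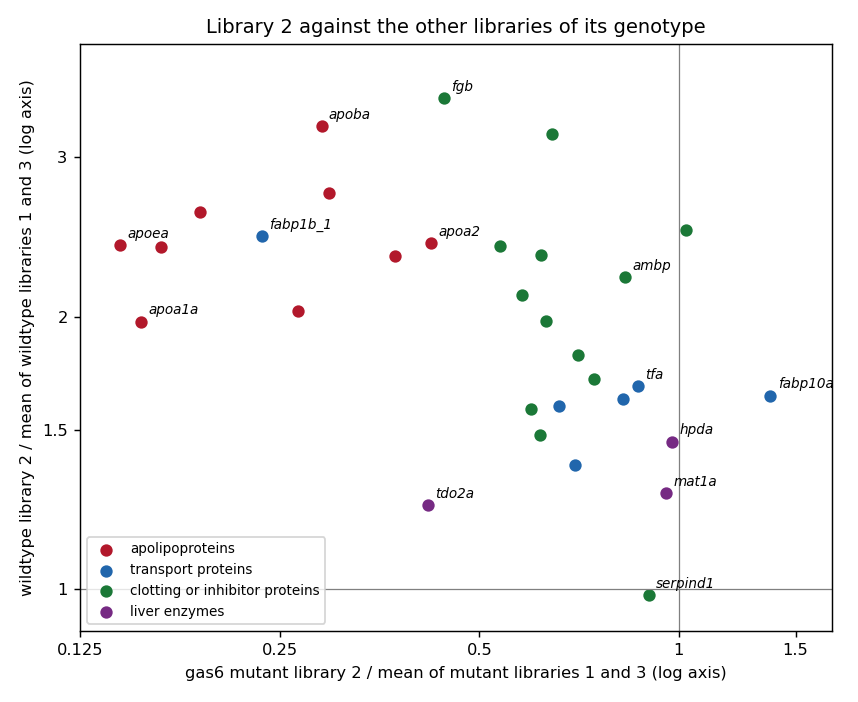
Ratio of library 2 to the mean of libraries 1 and 3, for *gas6* mutants (horizontal) and wildtype (vertical), both on log axes, with 1 point for each of the 31 genes tested. All 9 apolipoproteins lie at the upper left with a mutant ratio of at most 0.423 and a wildtype ratio of at least 1.98; of the other genes only *fabp1b_1*, *fgb* and *tdo2a* have a mutant ratio under 0.5.

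Of the yolk genes asked for, 3 vitellogenins were listed, which encode the precursors of yolk protein. *vtg1* had 9, 14 and 10 counts in the mutant libraries, against 5, 7 and 4.61 in wildtype, with all mutant libraries above. *vtg2* had 1 count in each mutant library, against 5, 8 and 2 in wildtype, with all mutant libraries below. *vtg3* had 4, 4 and 8 counts in the mutants, against 2, 6 and 10 in wildtype, and overlapped. None passed the filter on low counts. Vitellogenins are made by the liver of adult females, so these values measure neither the yolk nor its syncytial layer directly, and the part of yolk tissue in the result was not tested.

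Some absent names had relatives in the table under other names, and these were looked up after the table had been opened. *apoa4* and *APOA4* showed the library order of the apolipoproteins, with 40.1, 7.65 and 31.8 CPM in the mutants, against 7.56, 17.9 and 8.02 CPM in wildtype, for *apoa4*. It did not pass (log2 fold change 1.24, SE 0.471, adjusted p = 0.0615), while *APOA4* passed (1.52, SE 0.523, adjusted p = 0.0411). Counts of both were fractional, so reads may have been divided between them. *apoeb*, the other apolipoprotein E copy, which macrophages and skin also express, was at 115, 85.0 and 98.9 CPM in the mutants, against 54.4, 61.5 and 48.2 CPM in wildtype (log2 fold change 0.86, SE 0.130, adjusted p = 0.000436). It rose without overlap, and mutant library 2 held 0.793 of the mean of the other mutants. *apod*, an older name of *apoda.1*, also rose (log2 fold change 0.78, SE 0.240, adjusted p = 0.0261), whereas *HPX* did not pass (0.66, SE 0.239, adjusted p = 0.0511). The other relatives tested did not pass either. Their log2 fold changes were 1.504 for *apobl* (adjusted p = 0.0679), 0.23 for *APOB* (0.435), 0.34 for *APOD* (0.168) and -0.07 for *apof* (0.736), and *fabp1b_2* and *fabp10b* were too low to be tested.

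Further liver genes were then counted on written lists, beside a background of 16.7% of all genes tested called higher and 16.6% called lower. Of 40 other liver plasma proteins tested, 18 rose, 3 fell and 19 did not pass, with a median log2 fold change of 0.68. *cfhl3*, a gene related to complement factor H, had 68, 86 and 112 counts in the mutants and 0 in every wildtype library, and *cfhl4* rose as well (log2 fold change 1.82, SE 0.240, adjusted p = 0.00018). Among those that fell was *f10*, clotting factor X, which fell to 6.64, 6.26 and 7.31 CPM in the mutants, against 51.6, 43.6 and 44.0 CPM in wildtype (log2 fold change -2.78, SE 0.124, adjusted p = 5.99e-08). Of 32 other liver enzymes tested, 17 rose, 2 fell and 13 did not pass, with a median of 0.81. *hal* and *ftcd* encode enzymes of histidine breakdown, and *pah* encodes phenylalanine hydroxylase. *hal* had 104, 80 and 73 counts in the mutants, against 6, 9 and 6 in wildtype (log2 fold change 3.48, SE 0.371, adjusted p = 4e-05). *ftcd* had 147, 176 and 135 counts in the mutants, against 27, 39 and 21 in wildtype (2.26, SE 0.241, adjusted p = 4.06e-05). In CPM, mutant library 3 and not library 2 was the lowest of the mutants for *hal* and *ftcd*. *pah* fell (log2 fold change -1.03, SE 0.116, adjusted p = 5.78e-05).

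Of 16 transcription factors of liver cells tested, 6 rose, 1 fell and 9 did not pass, with a median log2 fold change of 0.36. The mean summed level of the list in mutants was 1.095-fold that in wildtype. Those that rose included *hnf1ba* (log2 fold change 0.52, adjusted p = 0.0136), which the study treats as a regulator of hindbrain segments. The list is therefore not particular to liver. The gene that fell was *onecut1* (-0.54, adjusted p = 0.00259). *nr1h4* encodes the bile acid receptor FXR and had 42, 50 and 39 counts in the mutants, against 7, 10 and 4 in wildtype (log2 fold change 2.48, SE 0.350, adjusted p = 0.000286). *hnf4a*, a nuclear receptor that controls many hepatocyte genes, had 53, 74 and 73 counts in the mutants, against 21, 31 and 17 in wildtype (1.37, SE 0.243, adjusted p = 0.00127). Both also act outside the liver, for instance in gut. Genes of lipoprotein handling gave 5 that rose, 2 that fell and 20 that did not pass among 27 tested, with a median of 0.21, a share of higher calls near the 16.7% of all genes. Among them the endothelial lipase gene *lipg* fell (log2 fold change -0.93, SE 0.110, adjusted p = 8.59e-05). The 5 that rose included *apoeb*, given above, which was also on the list of microglia and macrophages.

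Markers of other organs were set beside these values. In the gut and pancreas list 5 genes rose, 4 fell and 6 did not pass among 15 tested, and the summed level was 70.7, 71.5 and 80.1 CPM in the mutants, against 101, 88.6 and 65.1 CPM in wildtype. Erythrocyte genes summed to between 2414 and 2825 CPM in the mutants and between 1922 and 2760 CPM in wildtype, and 14 of 18 did not pass. Lens genes, which mark tissue outside the hindbrain, summed to 788, 1004 and 1861 CPM in the mutants, against 3.01, 9.16 and 62.4 CPM in wildtype, and all 16 tested rose. Of 8 photoreceptor genes tested 5 rose and 3 did not pass, of 18 genes of microglia and macrophages 3 rose and 1 fell, of 19 epidermal genes 3 rose and 1 fell, and of 27 skeletal muscle genes 3 fell and 24 did not pass. Skeletal muscle genes summed to 39180, 45750 and 75800 CPM in the mutants, against 51960, 50670 and 49350 CPM in wildtype. Epidermal genes summed to 23860, 19530 and 23900 CPM in the mutants, against 17530, 24780 and 15970 CPM in wildtype. Both lists also mark tissue outside the hindbrain. The shares called higher among microglial, epidermal and erythrocyte genes were near that of all genes tested, at 16.7%. The part of lens or other tissue in the plasma protein result was not tested.

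**Figure D5:**
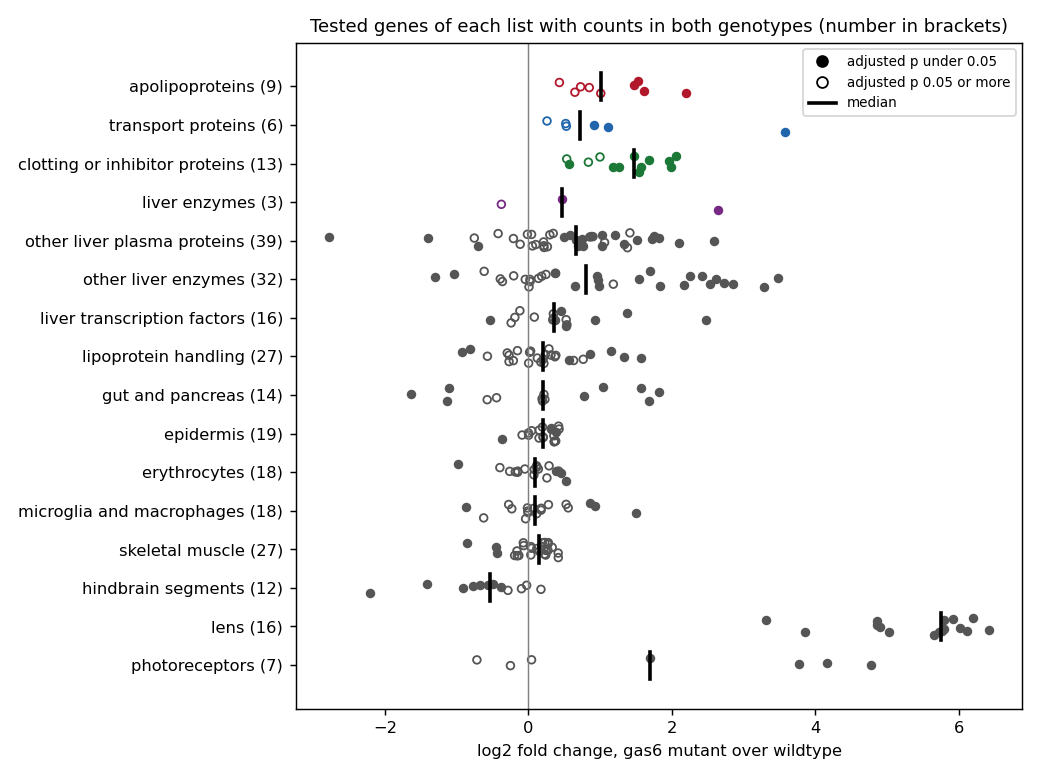
Log2 fold change of *gas6* mutant over wildtype for the tested genes of each list with counts in both genotypes, their number in brackets. Filled points had an adjusted p-value under 0.05 and black bars are medians of the points shown; the coloured rows are the 31 genes described here, the medians of the liver rows lie to the right of 0, and that of the lens genes lies farthest right.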

How the data were processed

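RNA was sequenced from pools of hindbrains dissected at 48 hpf, with 3 *gas6* mutant and 3 wildtype libraries made with a stranded mRNA kit. The authors deposited estimated counts per gene, and the submitters' processing notes name RSEM 1.2.28, FastQC and DESeq2, and the builds GRCz10 and danRer7 without their roles. Reads that fit several genes are divided among them by such estimates, and 45.6% of genes had whole counts in every library. The deposited table also holds the authors' comparison columns, an adjusted p-value, a log2 fold change and a fold change, which were not used.

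Counts were rounded to whole numbers and tested with edgeR 4.0.16 (R 4.3.3, limma 3.58.1) by the quasi-likelihood method with TMM scaling. Genes passed filterByExpr with a minimum count of 10 and a minimum total of 15, which removed 2562 genes and left 20463, and p-values were Benjamini-Hochberg adjusted over these. SE is the log2 fold change divided by the square root of F. The fit had 4 residual degrees of freedom, a biological coefficient of variation of 12.5% and a median SE of 0.154. Total counts per library are the depth behind every value and were 18376627, 26388041 and 27025868 in mutants and 24351023, 24589101 and 21844559 in wildtype. Code was tested on simulated data.

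The genes and lists were chosen with earlier results of these data known. Values in every library are given for genes past the adjusted threshold of 0.05 or with a mean of at least 10 CPM in either genotype, and at most the 3 genes of smallest p from each further list. Sums of CPM and ratios between libraries carry no test. Alternatives were DESeq2 1.42.0, upper quartile and total count scaling, no filter, a minimum count of 50, a threshold of 0.01, a replicate block and leaving out each library. Leaving out both libraries numbered 2 was chosen after seeing the data.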

Additional observations from a re-analysis of the deposited data

How the results depend on the processing

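No log2 fold change of the 26 genes given in full reversed in any of 362 values from the alternatives. The threshold of 0.01 was applied to the main fit, so no value could reverse there. Of the 362 values 319 kept their side of the threshold, 20 lost the call and 23 gained it, and 14 genes kept theirs throughout. The 362 values include the fit without library 2 of both genotypes, chosen after seeing the data. The 19 calls became 18 under DESeq2, 19 with upper quartile scaling, 21 with total count scaling, 19 without the filter, 17 at a minimum count of 50 and 14 at a threshold of 0.01. Leaving out 1 library gave 16 to 24 calls, of which 13 to 22 exceeded 2-fold, against 16 with all libraries. Without library 2 of both genotypes, an alternative chosen after seeing the data, 26 genes exceeded 2-fold, but that choice itself favoured larger differences. Over all genes, 6813 calls became 3831 at a threshold of 0.01 and 4110 without both libraries, where fewer libraries entered, and lay between 4661 and 6919 when 1 library was left out. The summed log2 ratio was 0.95 for transport proteins without *tfa* and 2.32 for liver enzymes without *mat1a*. *tfa* took 186 of 275 CPM of its group in mutants and 15.5 of 61.7 CPM in wildtype, and *mat1a* took 26.6 of 39.7 CPM in mutants and 19.2 of 21.9 CPM in wildtype. When 1 library was left out the ratios ran from 0.77 to 1.602 for apolipoproteins, from 1.93 to 2.39 for transport proteins, from 0.97 to 1.68 for clotting or inhibitor genes and from 0.77 to 0.99 for liver enzymes.

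Same-numbered libraries did not deviate together (r across genes of -0.00384, -0.109 and 0.0112 for numbers 1, 2 and 3). Only wildtype library 3 correlated best with its own number. The negative r of the libraries numbered 2 was the largest in size among all pairs. No sign of pairing by number was seen, but such correlations cannot show whether same-numbered pools were handled together. With a replicate block, 22 of the 31 genes were called, 17 exceeded 2-fold and 6359 of all genes were called. The block moved *cp* (adjusted p = 0.037), *fga* (0.0215) and *serpina1* (0.0282) past the threshold.

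With 3 libraries a genotype, 1 library can decide a call, as given beside the genes concerned. The counts of *ttr*, *ahsg* and *fabp10a* were too few to show small differences. Reads divided among similar genes leave the separate values of *serpina1*, *serpina1l*, *apoa4* and *APOA4* uncertain.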

Other observations

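The library order of the apolipoproteins was looked for in all genes after it had been seen. Among 18302 genes with a mean of at least 1 CPM, 39 had less than 0.5 of the level of the other mutants in mutant library 2 and more than 1.5 times that of the other wildtype libraries in wildtype library 2. The rule was drawn from the 9 apolipoproteins, all of which met it. Of the 28 plasma protein genes considered 11 met it, these 9 with *fgb* and *fabp1b_1*, where 0.213% of all genes considered did. Also among the 39 were 3 relatives, *apoa4*, *APOA4* and *apobl*. Of the rest, *fetub*, which encodes the plasma protein fetuin B, was at 27.1, 7.29 and 26.9 CPM in the mutants, against 7.79, 15.5 and 5.83 CPM in wildtype. *c9*, a component of the complement membrane attack complex, was at 13.7, 5.50 and 9.92 CPM in the mutants, against 3.42, 7.77 and 2.94 CPM in wildtype. *a2ml* and *c5*, further plasma protein genes, also met the rule, with mutant ratios of 0.355 for *a2ml* and 0.465 for *c5*.

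Genes outside the lists of plasma proteins used here also met the rule. *slc39a5*, of a family of zinc transporters, was at 3.19, 0.787 and 4.38 CPM in the mutants, against 1.87, 2.90 and 1.63 CPM in wildtype. *TM6SF2*, whose human namesake is linked to lipoprotein secretion, had ratios of 0.482 in mutant library 2 and 1.87 in wildtype library 2. *acp5a*, an acid phosphatase gene known from osteoclasts, had ratios of 0.253 and 2.13 in the same libraries. These genes were picked for their values, and no test was made.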
